A study of Mus musculus with 35 samples.

Results

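Dentate granule neurons, the principal excitatory cells of the dentate gyrus, were taken from libraries of single nuclei of mouse hippocampus and described across genes in 4 genotypes. A barcode counted as a granule neuron when it had at least 1000 detected genes and at least 1 UMI (unique molecular identifier, a count of 1 captured RNA molecule) of Prox1. It also needed at least 6 UMIs, and at least 0.1% of its UMIs, of the granule neuron genes Prox1, Glis3, Plk5, Trpc6, Rfx3 and Dsp, from at least 4 of these 6 genes. At most 3 UMIs of Gad1 and Gad2 together, none of Gja1 and at most 1 of Mog and Mag together were allowed. This rule gave 20420 granule nuclei of 144991 deposited barcodes, or of 122747 barcodes with at least 1000 genes. Because the members were chosen by the UMIs of these genes in the same barcodes, the levels of the rule genes are given as a description only.

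Granule neurons receive the main cortical input of the hippocampus through the perforant path and pass it to CA3 through their mossy fibre axons. They are small, densely packed, fire sparsely, are marked throughout life by the transcription factor Prox1, and are among the few neurons that are still born in the adult rodent brain. The V-ATPase is the proton pump that acidifies lysosomes, the organelles that degrade protein aggregates and membranes. TFEB is a transcription factor that binds a short DNA element, the CLEAR element, in promoters of lysosomal and V-ATPase genes.

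All nuclei libraries came from frozen hippocampus of mice of the strain C57BL/6 aged 9 months, with the 10x Genomics 3' v3 chemistry, which counts the 3' ends of transcripts. WT is the wild type group (n = 3 libraries). PS19 mice (n = 3) carry a transgene of mutant human tau that is driven by the promoter of the mouse prion protein gene Prnp and so is not restricted to granule neurons. In CLEAR mice (n = 4) the CLEAR element at Atp6v1h, the gene of subunit H of the V-ATPase, is mutated in all cells, to the extent that the study's design is known here. CLEAR_PS19 mice (n = 4) carry the transgene and the mutation. Each group held 1 female, and the other animals were male. Bulk RNA-seq of whole hippocampus, which the rule did not use, came from WT and PS19 animals aged 9 months (5 and 4 libraries) and 4 months (6 and 6 libraries), with sex not labelled; replicate 2 of PS19 at 9 months is not used here. The labels do not say that each library is a separate animal, so p-values measure the spread between these libraries.

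Granule nuclei per library ranged from 483 (PS19 2) to 2721 (WT 1), with 4.90 to 25.7 M (mega) UMIs in all per library and a median of 5447 to 11177 UMIs and 2329.5 to 3604 genes per nucleus. Scrublet, which scores barcodes against simulated doublets, marked 5.37% to 12.4% of the members of a library, 1638 in all, and these were kept. Of 20360 distinct member barcodes, 60 occurred in more than 1 library, and no pair of libraries shared more than 3. The 116 barcodes just inside the rule, with 6 UMIs of the rule genes, had a median of 3653 UMIs, and the 75 just outside it, with 5, had 3125. Libraries fell into 3 sets by their correlation in earlier work on these data, and the labels name no batch. Set 1 was made of WT 1, WT 2, PS19 1, PS19 2, CLEAR 3 and CLEAR_PS19 3, and set 2 of the females. Set 3 had only libraries with the mutation, the first 2 replicates of CLEAR and of CLEAR_PS19. The other 4 libraries with the mutation were in sets 1 and 2.

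The members carried transcripts of granule neurons that the rule did not use. The 6 rule genes, given as a description, summed to 2936 to 3617 CPM (counts scaled to the same library total) across the 14 libraries. Their group means were 47.0 to 55.5 CPM in the other excitatory nuclei of the same libraries. These 12980 barcodes had Slc17a7, no Prox1 and at most 1 UMI of the rule genes. Both sides of this gap were therefore set by the selection. The 11 granule genes that the rule did not use summed to 3985 to 5118 CPM, against 348 to 367 CPM. Among them were Calb1, which encodes the calcium buffer calbindin, at group means of 104, 103, 99.3 and 118 CPM against 13.3, 7.40, 13.1 and 13.8, and C1ql2, a secreted synaptic organiser of mossy fibres, at 18.9, 13.5, 24.4 and 27.8 CPM against 2.20, 1.09, 1.78 and 2.05 (WT, PS19, CLEAR and CLEAR_PS19 in this order). Markers of CA1 pyramidal neurons summed to 31.3 to 51.0 CPM in members and to 503 to 557 CPM in the other excitatory nuclei. The list of CA3 and mossy cell markers was not low in members, at 256 to 388 CPM against 452 to 571, and most of that sum was 1 gene, Cpne4, whose group means were 355, 261, 289 and 268 CPM. Oligodendrocyte markers summed to 108 to 155 CPM in members and to 786 to 1804 CPM in the rest of the nuclei. Microglial markers summed to 148 to 270 CPM in members and to 201 to 569.8 CPM in the rest.

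Granule nuclei made up a smaller share of the libraries with the transgene. Of the barcodes with at least 1000 genes, they were 27.1%, 22.4% and 22.0% in the WT libraries, 12.8%, 5.22% and 14.8% in those of PS19, 17.1%, 16.9%, 21.8% and 20.2% in those of CLEAR, and 14.4%, 12.4%, 12.9% and 17.4% in those of CLEAR_PS19. Every PS19 library lay below every WT library, and the ranges of CLEAR and CLEAR_PS19 overlapped, with CLEAR_PS19 4 above CLEAR 1 and 2. The group means were 23.9% ± 2.84 (SD, n = 3), 10.9% ± 5.05 (n = 3), 19.0% ± 2.45 (n = 4) and 14.3% ± 2.27 (n = 4). Averaged over the backgrounds without and with the mutation, the transgene went with a difference of -8.82 percentage points (exact two-sided permutation test within backgrounds, 1400 relabellings, p = 0.00429, adjusted over both share comparisons 0.00857). Within set 1 the difference was -15.8 points without and -8.95 points with the mutation, within set 2 it was -7.19 and -2.81, and within set 3, which held no library without the mutation, it was -3.56. Barcodes with at least 3000 UMIs were also thinned to 3000 each, and shallower barcodes were left out. With the rule scaled down and no floor on genes, the difference was -5.16 points and missed the threshold (adjusted p = 0.0543, exact permutation test). Both the depth and the set of barcodes changed in this setting. PS19 and WT then overlapped, with PS19 3 at 17.8% above WT 2 at 16.8%, and CLEAR_PS19 4, at 20.2%, was above every CLEAR library. Of the 6 rule genes, 3 had positive estimates within members and 3 negative ones, the lowest at Trpc6 (-0.28 ± 0.08) and Plk5 (-0.24 ± 0.13), given as a description. As a share of members and other excitatory nuclei together, the difference was -17.6 points (exact permutation test, adjusted p = 0.0114). Fewer granule nuclei, more nuclei of other types and fewer nuclei passing the rule cannot be told apart here. The share with and without the CLEAR mutation differed by -0.75 points (exact two-sided permutation test within transgene genotypes, p = 0.721).

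**Figure D1:**
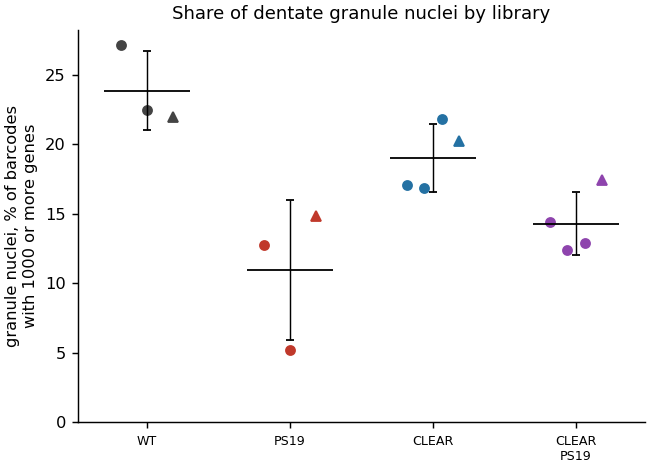
Share of granule nuclei among barcodes with at least 1000 genes (y axis, percent) in each of the 14 libraries, by genotype (x axis); circles are males, triangles are females, lines are group means and bars are SD. All 3 PS19 libraries, at 5.22% to 14.8%, sit below all 3 WT libraries, at 22.0% to 27.1%.

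Prnp, the prion protein gene whose promoter drives the transgene (chr2:131909928-131938429), was the first check of the labels. It was at 45.4, 48.0 and 43.9 CPM (WT), 108, 127 and 88.7 CPM (PS19), 61.1, 64.2, 49.4 and 53.6 CPM (CLEAR) and 154, 162, 122 and 82.6 CPM (CLEAR_PS19). All libraries with the transgene were above all libraries without it. The log2 fold change of Prnp was 1.19 ± 0.10, adjusted p = 4.4e-05 (SE; edgeR quasi-likelihood test averaged over both backgrounds, Benjamini-Hochberg adjustment, as for every adjusted p of a gene below). The rise was 1.22 ± 0.16 without and 1.17 ± 0.14 with the mutation, and 0.99 ± 0.10 in the other excitatory nuclei, which did not differ significantly from granule nuclei (difference 0.19 ± 0.05, adjusted p = 0.10). Counts of the endogenous gene and of transgene transcripts that carry its sequence cannot be told apart. Mapt, the mouse tau gene (chr11:104231390-104332090), did not pass the test in granule nuclei, with means ± SD of 260.0 ± 11.8 CPM (WT), 275 ± 1.83 CPM (PS19), 253 ± 26.2 CPM (CLEAR) and 255 ± 17.98 CPM (CLEAR_PS19) (log2 fold change 0.05 ± 0.06, adjusted p = 0.88). In bulk hippocampus Mapt was higher in PS19, by 0.47 at 9 months and by 0.60 at 4 months on the log2 scale. Whether bulk reads of the human tau transgene were counted at mouse Mapt was not tested.

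The sequence just upstream of Prnp is shown because the transgene uses this gene's promoter. The 240 bases from 250 to 11 bases before the annotated start (RefSeq, GRCm38.p6, plus strand, chr2:131909678-131909917) held neither motif searched for below:
Prnp: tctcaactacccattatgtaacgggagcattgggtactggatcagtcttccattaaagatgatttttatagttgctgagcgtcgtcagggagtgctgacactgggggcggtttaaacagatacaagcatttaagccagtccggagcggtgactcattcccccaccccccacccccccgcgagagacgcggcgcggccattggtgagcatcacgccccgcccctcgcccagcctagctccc

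A group of 3 neighbouring gene models on chromosome 3 separated the libraries with the transgene from those without it. Gm43049 (chr3:140692038-140760704) had 2367 UMIs in the PS19 members and 2 in WT, 4021 in CLEAR_PS19 and 3 in CLEAR. Gm32754 (chr3:140904998-140917459) had 256 and 3, and 433 and 1. Next to it, 4930590L14Rik (chr3:140951876-140953247) had 18 UMIs in PS19 and none in WT, and 72 in CLEAR_PS19 and none in CLEAR, at least 13.3-fold and 30.1-fold higher against 3 UMIs over the group. Gm43049 was also detected in other excitatory nuclei, with group means of 87.0 and 89.3 CPM in granule nuclei of PS19 and CLEAR_PS19 and of 129.7 and 127 CPM in other excitatory nuclei. They were named after their values were seen. The netrin receptor gene Unc5c lies on the same chromosome (chr3:141465216-141834924) and was lower with the transgene, at 477, 482 and 422 CPM (WT), 315, 326 and 391 CPM (PS19), 353, 370.0, 465 and 555 CPM (CLEAR) and 279, 289, 306 and 403 CPM (CLEAR_PS19) (-0.44 ± 0.09, adjusted p = 0.034). Its estimate in other excitatory nuclei was -0.48 ± 0.15.

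The tau transgene changed 149 of 16884 genes tested in granule nuclei when averaged over both backgrounds (0.882%), 94 higher (0.557%) and 55 lower (0.326%). With the replicate number as a block, a term shared by all genotypes, 502 genes passed (2.97%), 256 higher and 246 lower, and they included all 149. At an unadjusted p under 0.05 there were 1896 genes. Leaving out 1 library at a time gave 61 to 156 calls (81 without WT 1, 61 without WT 2, 76 without PS19 1, 74 without PS19 2, 92 without CLEAR 1, 80 without CLEAR 2, 91 without CLEAR 4 and 91 without CLEAR_PS19 2), and 45 genes passed in all 14 of these fits. Without set 3 there were 128 calls, of which 77 were among the 149. In 112 genes (0.663% of those tested) the libraries with the transgene did not overlap those without it in either background. Of these, 74 were higher (0.438%) and 38 lower (0.225%). The genes of largest fold change named below were chosen among called genes without such overlap, so their separation is part of that choice.

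Hectd2, which encodes an E3 ubiquitin ligase, was at 112, 151 and 109.8 CPM (WT), 255, 260.5 and 221 CPM (PS19), 143, 135, 131 and 135 CPM (CLEAR) and 173, 197, 230.4 and 190.5 CPM (CLEAR_PS19). All PS19 libraries lay above all WT libraries and all CLEAR_PS19 libraries above all CLEAR libraries, with a log2 fold change of 0.76 ± 0.08, adjusted p = 0.00022. The antisense gene Hectd2os, which overlaps it, rose by 0.86 ± 0.10, adjusted p = 0.00053; whether the counting used strand is not given in the sources used here, so their counts cannot be told apart. Fgfr1, a receptor for fibroblast growth factors, was at 23.2, 22.1 and 27.8 CPM (WT), 34.1, 39.2 and 47.4 CPM (PS19), 25.3, 24.5, 23.6 and 28.3 CPM (CLEAR) and 36.9, 35.7, 39.6 and 37.9 CPM (CLEAR_PS19). Again no library with the transgene was as low as any without it in its background, and Fgfr1 rose by 0.64 ± 0.07, adjusted p = 0.00020. Fgfr1 was also called within the mutant background alone (0.57 ± 0.09, adjusted p = 0.020). Hpca encodes the neuronal calcium sensor hippocalcin and was at 28.6, 35.1 and 39.5 CPM (WT), 52.7, 48.2 and 71.8 CPM (PS19), 38.2, 40.1, 35.0 and 40.4 CPM (CLEAR) and 58.2, 55.5, 49.1 and 55.7 CPM (CLEAR_PS19), with no overlap in either background. For Hpca, which overlaps Tmem54, the log2 fold change was 0.63 ± 0.08, adjusted p = 0.0012. Cacna1g encodes the T-type calcium channel Cav3.1 and was at 9.42, 6.15 and 9.57 CPM (WT), 11.9, 13.8 and 12.1 CPM (PS19), 9.45, 8.49, 8.27 and 8.67 CPM (CLEAR) and 17.5, 18.3, 17.8 and 11.8 CPM (CLEAR_PS19). CLEAR_PS19 4 was the lowest of its group but still above every CLEAR library, and the log2 fold change was 0.74 ± 0.12, adjusted p = 0.0094. Neurod2, a transcription factor of excitatory neurons named after its values were seen, was at 53.8, 57.1 and 55.4 CPM (WT), 78.2, 86.2 and 90.1 CPM (PS19), 76.1, 71.8, 57.6 and 55.5 CPM (CLEAR) and 85.5, 83.4, 87.6 and 72.7 CPM (CLEAR_PS19) (0.48 ± 0.08, adjusted p = 0.0085); here CLEAR 1 was above CLEAR_PS19 4.

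Larger fold changes were found for Adamts6 and Trib2. Adamts6, a secreted metalloprotease gene, was at 13.3, 6.90 and 7.61 CPM (WT), 24.2, 26.3 and 22.3 CPM (PS19), 8.84, 8.04, 10.1 and 11.2 CPM (CLEAR) and 11.8, 12.01, 23.1 and 25.4 CPM (CLEAR_PS19). PS19 lay above WT in each library, whereas CLEAR_PS19 1 and 2, both of set 3, were only just above the CLEAR libraries (1.12 ± 0.19, adjusted p = 0.013). Trib2, which encodes a Tribbles pseudokinase, was at 8.40, 8.31 and 6.84 CPM (WT), 19.6, 20.7 and 14.6 CPM (PS19), 9.90, 8.19, 8.69 and 12.3 CPM (CLEAR) and 18.9, 16.2, 16.6 and 18.1 CPM (CLEAR_PS19), and the log2 fold change was 1.02 ± 0.11, adjusted p = 0.00039. Pmepa1, a membrane protein gene that restrains TGF-beta signalling, was at 8.20, 8.04 and 12.4 CPM (WT), 13.9, 21.1 and 20 CPM (PS19), 7.71, 10.1, 9.84 and 9.23 CPM (CLEAR) and 15.1, 15.3, 16.2 and 16.4 CPM (CLEAR_PS19). CLEAR_PS19 libraries were tightly grouped, and the log2 fold change was 0.86 ± 0.11, adjusted p = 0.0020. Inf2, a formin gene of actin assembly, was at 23.4, 22.2 and 38.1 CPM (WT), 46.0, 52.3 and 60.8 CPM (PS19), 34.0, 36.1, 24.6 and 29.0 CPM (CLEAR) and 37.4, 39.0, 46.6 and 46.5 CPM (CLEAR_PS19). For Inf2 the log2 fold change was 0.70 ± 0.11, adjusted p = 0.0091. The non-coding host gene Mir670hg rose by 0.95 ± 0.17, adjusted p = 0.014, and the kinase gene Hunk by 0.73 ± 0.13, adjusted p = 0.013. Of the 12 genes that the naming rule gives for this direction, 2 are known markers of other cell types. C1qa, a complement gene of microglia, rose by 1.79 ± 0.24, adjusted p = 0.0020 in members, at group means of 2.74, 12.2, 2.72 and 7.56 CPM against 8.53, 35.1, 14.1 and 29.4 CPM in the rest of the nuclei. Cldn11, a claudin gene of oligodendrocyte myelin, rose by 0.88 ± 0.16, adjusted p = 0.019, at 3.73, 7.02, 3.81 and 6.93 CPM in members against 33.0, 62.8, 52.7 and 82.0 CPM in the rest. For these 2 genes the part of RNA from other cells was not tested.

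**Figure D2:**
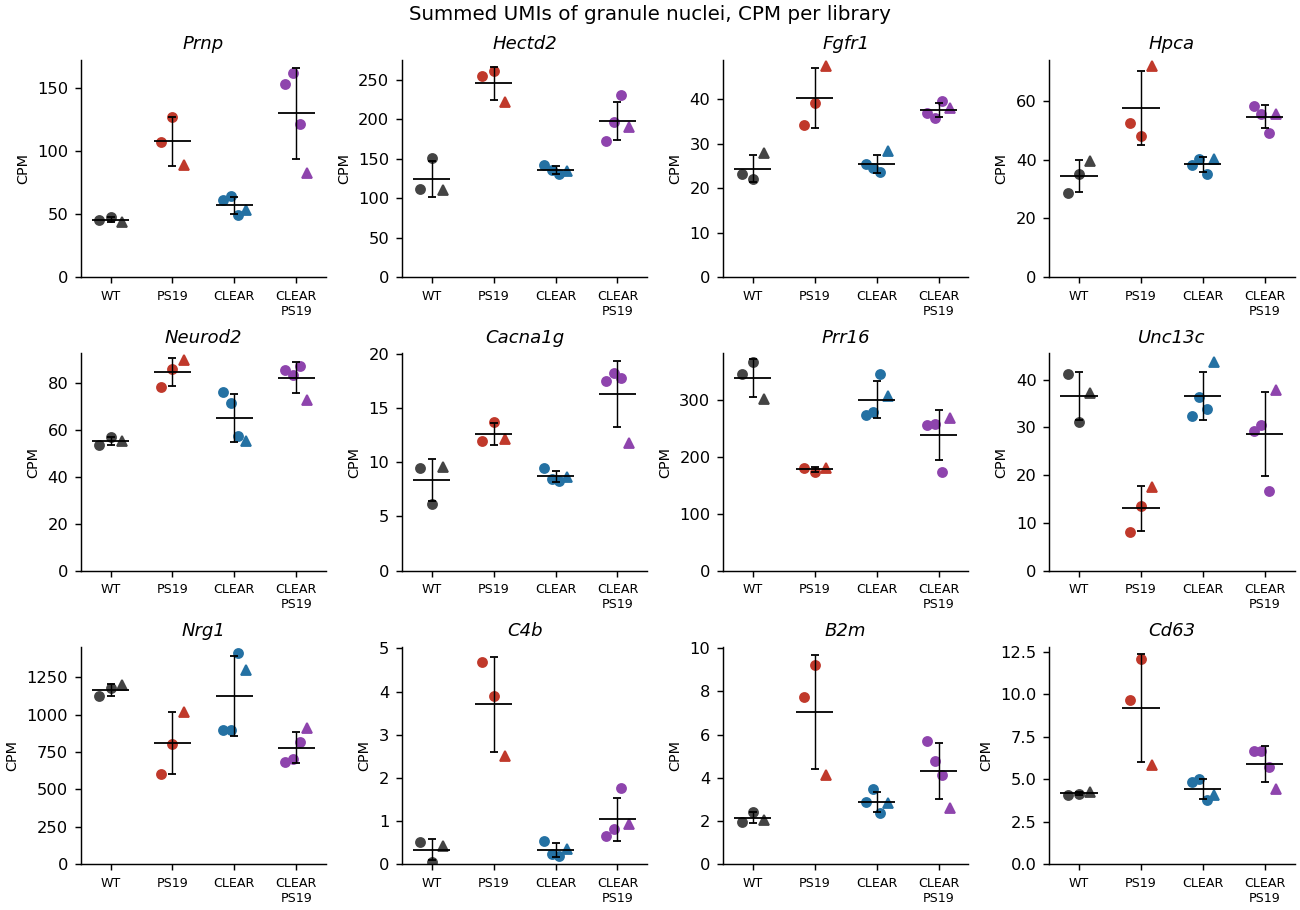
Levels (y axis, CPM) of 12 genes in the granule nuclei of each library, by genotype (x axis), with group means. In Hectd2, Fgfr1, Hpca and Cacna1g every library with the transgene lies above every library without it in the same background. In Prr16 every such library lies below. Hectd2, Cacna1g and Prr16 were named among genes chosen for this lack of overlap.

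Prr16, known as a regulator of cell size, was at 345, 367 and 301 CPM (WT), 180.1, 172 and 180.5 CPM (PS19), 272, 278, 344 and 306 CPM (CLEAR) and 255, 257, 173 and 267 CPM (CLEAR_PS19). The 3 PS19 libraries were close together and below WT, whereas in CLEAR_PS19 only replicate 3 came as low (-0.63 ± 0.10, adjusted p = 0.0065). Unc13c encodes Munc13-3, a presynaptic protein that primes vesicles, and was at 41.1, 31.2 and 37.3 CPM (WT), 7.98, 13.5 and 17.5 CPM (PS19), 32.4, 36.3, 33.8 and 43.7 CPM (CLEAR) and 29.3, 30.4, 16.6 and 37.8 CPM (CLEAR_PS19). In PS19 the libraries did not reach the WT range, and in CLEAR_PS19 replicate 4 lay within the range of CLEAR (-0.97 ± 0.15, adjusted p = 0.0065). Nrg1, the growth factor neuregulin 1, named after its values were seen, was at 1122, 1179 and 1199 CPM (WT), 602, 802 and 1017 CPM (PS19), 896, 896, 1412 and 1296 CPM (CLEAR) and 683, 704, 816 and 908 CPM (CLEAR_PS19). For Nrg1 the log2 fold change was -0.54 ± 0.11, adjusted p = 0.036. CLEAR_PS19 4 lay above CLEAR 1 and 2 for this gene. Tspan15, a tetraspanin gene that directs the protease ADAM10, was at 15.5, 14.7 and 18.1 CPM (WT), 9.37, 9.24 and 9.71 CPM (PS19), 14.1, 16.1, 16.2 and 12.97 CPM (CLEAR) and 12.4, 12.5, 9.36 and 11.6 CPM (CLEAR_PS19). For Tspan15 the log2 fold change was -0.57 ± 0.10, adjusted p = 0.012. The sestrin gene Sesn3 was at 47.7, 49.9 and 45.2 CPM (WT), 39.5, 37.4 and 34.4 CPM (PS19), 46.9, 46.8, 44.8 and 45.9 CPM (CLEAR) and 37.4, 40.2, 41.8 and 36.6 CPM (CLEAR_PS19), a small fall with no overlap between groups (-0.30 ± 0.05, adjusted p = 0.015). Lamp5, a neuronal member of the LAMP family, fell by 0.70 ± 0.14, adjusted p = 0.036. The other genes that the rule names for this direction were Mfsd13b (-0.61 ± 0.10, adjusted p = 0.0089), the phospholipid scramblase gene Plscr4 (-0.60 ± 0.13, adjusted p = 0.039), Fam117a (-0.54 ± 0.10, adjusted p = 0.015), the sialyltransferase gene St3gal1 (-0.53 ± 0.09, adjusted p = 0.014), Spef2 (-0.47 ± 0.09, adjusted p = 0.033), the dystrophin relative Drp2 (-0.37 ± 0.07, adjusted p = 0.035), Sel1l3 (-0.36 ± 0.08, adjusted p = 0.040) and Sestd1 (-0.28 ± 0.05, adjusted p = 0.022). Several of these calls were lost in the 14 fits that each left out 1 library. Plscr4 was not called in 13 of them, Sel1l3 in 11, Drp2 in 10, Lamp5 in 9, Spef2 in 7 and Sestd1 in 6, with adjusted p up to 0.10 and the direction kept in each. Sesn3 was not called without WT 2 or PS19 3 (adjusted p up to 0.057), nor Fam117a without WT 2 (0.053). Among the genes that rose, Mir670hg was not called without PS19 1 (0.059), nor Cldn11 without WT 3 or PS19 1 (up to 0.058).

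The transgene was also tested within each background. In the background without the mutation, PS19 against WT gave 50 calls (0.296%), 34 higher (0.201%) and 16 lower (0.0948%), or 254 with the replicate block (1.5%). Leaving out 1 library changed this count by more than 1.5 times in 7 of 14 cases (17 without WT 1, 11 without WT 2, 10 without PS19 1, 11 without PS19 2, 82 without PS19 3, 30 without CLEAR_PS19 2 and 112 without CLEAR_PS19 3). In the mutant background, CLEAR_PS19 against CLEAR gave 7 calls (0.0415%), or 29 with the replicate block (0.172%) and 29 without CLEAR_PS19 4. These 7 were Prnp, Fgfr1, 1700030L20Rik and the 3 chromosome 3 gene models, all higher, and AC159140.1, lower. Unc13c had log2 fold changes of -1.57 ± 0.23, adjusted p = 0.011 without and -0.37 ± 0.18, adjusted p = 0.92 with the mutation, and Prr16 of -0.93 ± 0.15, adjusted p = 0.014 and -0.34 ± 0.12, adjusted p = 0.70. Tmem132d had -0.96 ± 0.16, adjusted p = 0.021 and -0.28 ± 0.13, adjusted p = 0.89, and the kinase-related gene Rskr -0.99 ± 0.17, adjusted p = 0.021 and -0.51 ± 0.14, adjusted p = 0.38. Leaving out 1 library, the calls without the mutation were lost in 5 of 14 fits for Tmem132d (without WT 1 or 2 or any PS19 library, adjusted p up to 0.11) and in 4 of 14 for Rskr (without WT 1 or 2 or PS19 1 or 2, up to 0.11). The call of Unc13c was lost without PS19 1 (0.075). In other settings, Unc13c and Rskr lost their calls without the sex term and under a stricter membership rule. Tmem132d lost its call without the sex term, in males only and without members with microglial UMIs (described below). The difference between backgrounds was not significant for these genes (interaction 1.20 ± 0.30, adjusted p = 1.0 for Unc13c, 0.59 ± 0.19, adjusted p = 1.0 for Prr16, 0.68 ± 0.21, adjusted p = 1.0 for Tmem132d and 0.48 ± 0.22, adjusted p = 1.0 for Rskr). A single gene passed the interaction test (0.00592%), the gene model C230038L03Rik, named after its values were seen, at 7.65, 6.96 and 14.9 CPM (WT), 3.95, 3.08 and 6.97 CPM (PS19), 5.67, 6.09, 4.71 and 11.7 CPM (CLEAR) and 10.5, 9.90, 6.66 and 17.3 CPM (CLEAR_PS19) (1.72 ± 0.24, adjusted p = 0.048). It overlaps Tenm4 and Nars2. Its own call was lost in 12 of the 14 fits that each left out 1 library, with estimates of 1.63 to 1.83 and adjusted p up to 0.31; it passed only without CLEAR_PS19 3 or CLEAR_PS19 4. The number of genes with an interaction was 0 to 7 in these fits.

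Few genes of neuronal function passed the test. Of 148 genes of glutamate receptors, GABA receptors, potassium channels, sodium, calcium and HCN channels, and the pre- and postsynapse, 145 were tested; Cacna1g rose, Unc13c fell, and the median log2 fold change was -0.03, against 0.0016 over all genes tested. Over all genes 0.557% rose and 0.326% fell, so single calls in lists of this size lie near that background. With the replicate block, the genes added included Cacna1h, which rose, and Syn2, Grik2, Gabra2, Gabrb2 and Kcnip4, which fell. None of 37 immediate early and later activity genes passed, with a median of 0.04; with the block the neuropeptide gene Npy did, at 2.35, 1.62 and 1.47 CPM (WT), 2.56, 2.87 and 4.11 CPM (PS19), 1.89, 2.48, 2.47 and 1.62 CPM (CLEAR) and 6.61, 5.11, 2.95 and 2.45 CPM (CLEAR_PS19) (0.93 ± 0.23, adjusted p = 0.074; block adjusted p = 0.045). Of 31 genes of granule identity outside the rule (other granule genes, and dorsal, ventral and immature granule genes), 25 were tested and 1 fell, the retinol-binding protein receptor gene Stra6, at 43.5, 40.8 and 51.0 CPM (WT), 21.9, 19.1 and 40.5 CPM (PS19), 32.6, 29.5, 39.5 and 44.8 CPM (CLEAR) and 26.1, 26.4, 34.9 and 35.3 CPM (CLEAR_PS19) (-0.51 ± 0.11, adjusted p = 0.038). With the block Grp, a neuropeptide gene of the ventral list, also fell (-0.71 ± 0.30, adjusted p = 0.36, and block adjusted p = 0.025). These identity genes were tested only in nuclei that the rule had chosen by granule transcripts. Of the stress, autophagy, MiT/TFE, V-ATPase and cholesterol lists, 117 of 124 genes were tested and none passed. With the block the autophagy gene Wipi1 fell (-0.34 ± 0.10, adjusted p = 0.15; block adjusted p = 0.032), where 1.46% of all genes fell.

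Genes of MHC class I and the interferon response held 6 of the 14 genes called in 23 lists of cell functions. Of 22 such genes 16 were tested, all 16 had positive estimates with a median of 1.01, and 6 rose, among them B2m, H2-D1, H2-K1, C4b and Usp18, where 0.557% of all genes rose (8 with the replicate block, which added Ifit1 and Ifi27, where 1.52% rose). B2m, the light chain of MHC class I, was at 1.96, 2.43 and 2.02 CPM (WT), 7.76, 9.24 and 4.11 CPM (PS19), 2.87, 3.46, 2.35 and 2.82 CPM (CLEAR) and 5.71, 4.79, 4.13 and 2.601 CPM (CLEAR_PS19). PS19 was above WT in each library, and CLEAR_PS19 4 lay within the range of CLEAR (1.13 ± 0.17, adjusted p = 0.0059). The heavy chain gene H2-D1 was at 4.16, 2.37 and 1.75 CPM (WT), 9.67, 9.85 and 4.00 CPM (PS19), 4.99, 6.16, 2.84 and 1.90 CPM (CLEAR) and 7.25, 7.22, 5.39 and 4.28 CPM (CLEAR_PS19). For H2-D1 the log2 fold change was 1.05 ± 0.19, adjusted p = 0.015. C4b, a complement gene, was at 0.510, 0.0539 and 0.419 CPM (WT), 4.69, 3.90 and 2.51 CPM (PS19), 0.529, 0.225, 0.181 and 0.352 CPM (CLEAR) and 0.642, 0.812, 1.77 and 0.918 CPM (CLEAR_PS19), levels that rest on few UMIs (2.54 ± 0.37, adjusted p = 0.0059). H2-K1 rose by 1.24 ± 0.23, adjusted p = 0.019, and the protease gene Usp18 by 3.00 ± 0.61, adjusted p = 0.034 on 3 UMIs in CLEAR and 22 in CLEAR_PS19.

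Of 46 lysosomal genes 45 were tested, with a median of 0.05, and 3 rose, among them Cd63 and Ctsd, where 0.557% of all genes rose. Only 0 to 2 genes of this list passed in the 14 fits that each left out 1 library. Cd63, a tetraspanin of late endosomes and lysosomes, was at 4.08, 4.15 and 4.26 CPM (WT), 9.67, 12.1 and 5.83 CPM (PS19), 4.84, 5.03, 3.74 and 4.09 CPM (CLEAR) and 6.68, 6.66, 5.73 and 4.44 CPM (CLEAR_PS19). For Cd63 the log2 fold change was 0.75 ± 0.14, adjusted p = 0.015. Ctsd, the protease cathepsin D, was at 8.40, 6.42 and 7.05 CPM (WT), 14.6, 10.5 and 9.14 CPM (PS19), 7.71, 8.27, 6.22 and 6.27 CPM (CLEAR) and 14.1, 10.1, 10.2 and 6.88 CPM (CLEAR_PS19). For Ctsd the log2 fold change was 0.60 ± 0.13, adjusted p = 0.049. For both genes the PS19 libraries were all above the WT libraries.

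Microglial transcripts moved with these immune and lysosomal genes. All 7 microglial markers were detected in members, where they summed to 148 to 255 CPM (WT), 226 to 270.0 CPM (PS19), 172 to 228 CPM (CLEAR) and 169 to 269 CPM (CLEAR_PS19), and 3 of them rose, among them C1qa and Ctss, where 0.557% of all genes rose. The share of members with at least 1 UMI of Csf1r, C1qa, C1qb, Ctss or Inpp5d was 7.75%, 5.96% and 6.06% in the WT libraries, 29.0%, 30.6% and 13.1% in those of PS19, 5.90%, 6.85%, 5.91% and 7.60% in those of CLEAR and 13.7%, 11.96%, 16.8% and 7.18% in those of CLEAR_PS19. With those members left out, a choice made after the data were seen, 75 genes passed, 72 of them among the 149. C1qa and Ctss, which rose with the transgene, helped to choose the members left out, and a larger share was left out in PS19 than in WT. The log2 fold changes in that fit were 1.12 ± 0.17 for B2m (adjusted p = 0.0072), 0.99 ± 0.17 for H2-D1 (0.016), 2.57 ± 0.40 for C4b (0.0096) and 0.75 ± 0.15 for Cd63 (0.031). They were 1.09 ± 0.28 for H2-K1 (0.11), 3.11 ± 0.67 for Usp18 (0.060) and 0.53 ± 0.13 for Ctsd (0.11), which did not pass. The level of C4b in the rest of the nuclei was 4.60, 56.2, 8.27 and 23.9 CPM, against 0.328, 3.70, 0.322 and 1.04 CPM in members. The part of RNA from other cells in these results was not tested.

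Promoters of the interferon and MHC genes were searched because these genes moved together. The motif TTTC, any 2 bases, TTTC, the core of the element through which interferon-activated factors bind, was searched on both strands in the 250 bases upstream of each start (RefSeq, GRCm38.p6). It was present in 2.98% of 32851 promoters and in 7 of 20 promoters (35.0%) of the 16 list genes with an entry: B2m, Bst2, Ifit1, Ifit3, Isg15, Stat2 and Trim30a. Of these 7 genes 1, B2m, was called with the transgene without the replicate block. H2-D1 and H2-K1, which were also called, held no match. The promoter of B2m (chr2:122147437-122147676, plus strand, 250 to 11 bases before the start) is shown with the match in capitals, which lies on the other strand and begins 139 bases before the start:
B2m: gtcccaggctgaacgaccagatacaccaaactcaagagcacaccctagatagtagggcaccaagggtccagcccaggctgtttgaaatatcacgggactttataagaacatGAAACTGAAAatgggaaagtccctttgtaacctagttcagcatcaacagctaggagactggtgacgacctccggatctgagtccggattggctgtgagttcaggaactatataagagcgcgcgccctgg

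Tau effects were next compared between granule nuclei and the other excitatory nuclei of the same libraries. The difference between the effects passed for 93 of 17642 genes (0.527%), 57 with a more positive effect in granule nuclei (0.323%) and 36 with a more negative one (0.204%). Hpca differed by 0.86 ± 0.07, adjusted p = 7.0e-06, rising in granule nuclei by 0.63 ± 0.08 with an estimate of -0.25 ± 0.10 in other excitatory nuclei. The differences were 1.16 ± 0.11, adjusted p = 1.7e-05 for Adamts6, 0.95 ± 0.11, adjusted p = 0.00036 for Mir670hg, 0.94 ± 0.11, adjusted p = 0.00047 for Cacna1g and 0.84 ± 0.11, adjusted p = 0.00073 for Hectd2. In the other excitatory nuclei the estimates of these 4 genes were -0.06 ± 0.20, -0.01 ± 0.13, -0.22 ± 0.08 and -0.09 ± 0.09. Fgfr1 (0.70 ± 0.09, adjusted p = 0.00082), Neurod2 (0.54 ± 0.07, adjusted p = 0.00073) and Hunk (0.58 ± 0.12, adjusted p = 0.028) also differed in this direction.

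In the other direction, Zfhx3, a transcription factor gene, was at 41.4, 40.9 and 45.4 CPM (WT), 29.0, 29.6 and 28.9 CPM (PS19), 31.3, 31.6, 42.3 and 39.5 CPM (CLEAR) and 32.7, 29.2, 29.4 and 36.1 CPM (CLEAR_PS19) in granule nuclei (-0.37 ± 0.08, adjusted p = 0.038), and its effect was more negative there than in other excitatory nuclei (difference -0.70 ± 0.12, adjusted p = 0.010). Plcg2, a phospholipase, differed by -0.79 ± 0.14, adjusted p = 0.011, with estimates of -0.25 ± 0.09 in granule and 0.56 ± 0.16 in other excitatory nuclei. Against CA1-like nuclei alone (described below), the differences of Zfhx3 and Plcg2 were not called. Adcy10, the soluble adenylyl cyclase gene, differed by -0.65 ± 0.11, adjusted p = 0.010, Tmem255a by -0.68 ± 0.13, adjusted p = 0.024 (lost in 5 of 14 fits without 1 library, WT 1, PS19 1 or 2 or CLEAR 1 or 2, adjusted p up to 0.090), Lamp5 by -0.76 ± 0.16, adjusted p = 0.044, Sel1l3 by -0.36 ± 0.07, adjusted p = 0.028 and Sesn3 by -0.49 ± 0.09, adjusted p = 0.024. Sesn3 fell in granule nuclei, with an estimate of 0.20 ± 0.11 in the others. Of the immune and lysosomal genes above, none differed significantly between the classes: B2m differed by 0.15 ± 0.17, adjusted p = 0.85, H2-D1 by 0.29 ± 0.16, adjusted p = 0.54 and Cd63 by -0.05 ± 0.14, adjusted p = 0.96.

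**Figure D3:**
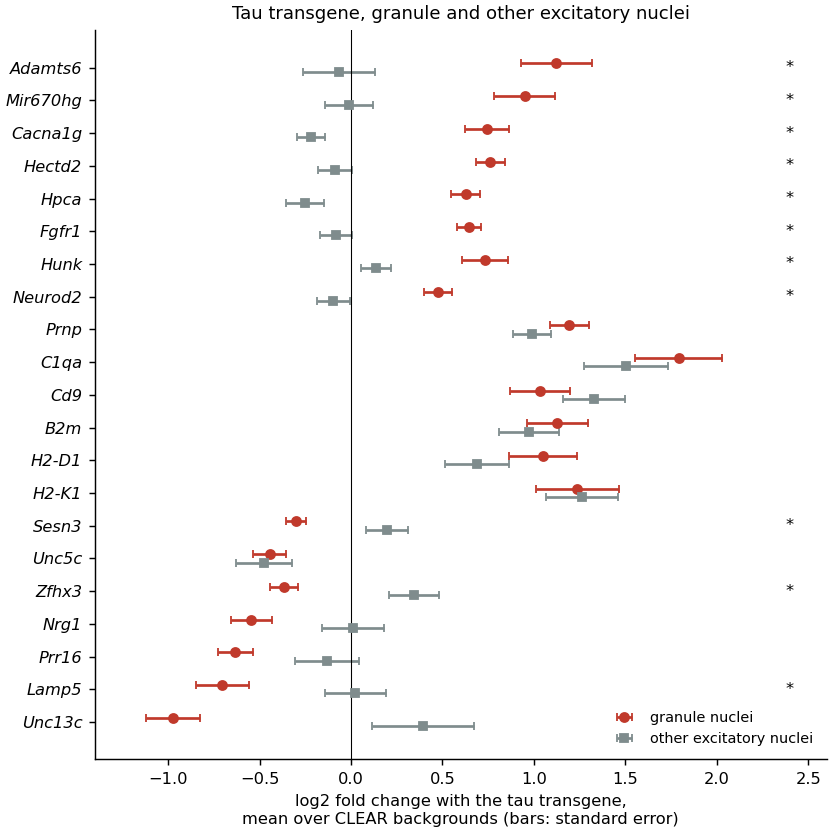
Log2 fold change with the tau transgene (x axis, ± SE) of 21 genes (y axis) in granule nuclei and in the other excitatory nuclei of the same 14 libraries; an asterisk marks genes whose effects differ at an adjusted p under 0.05. Hpca, Cacna1g and Hectd2 rise in granule nuclei and have estimates below 0 in the others, whereas B2m and H2-D1 are higher in both.

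Few list genes passed the test of the class difference. Of 18 cholesterol synthesis genes 2 had a more positive tau effect in granule nuclei, among them Msmo1, where 0.323% of all genes did. The estimate of the difference was positive for all 18, against 46.4% of all genes, with a median of 0.37 against -0.012. Msmo1, a sterol demethylation enzyme, had estimates of -0.05 ± 0.13 in granule and -0.60 ± 0.14 in other excitatory nuclei (difference 0.52 ± 0.11, adjusted p = 0.045). Msmo1 was not called within granule nuclei or within the other nuclei. Of 20 immediate early genes the estimate was positive for 17 and 2 passed, the transcription factor gene Fosl2 (0.89 ± 0.13, adjusted p = 0.0042) and the stress response gene Gadd45b (1.16 ± 0.23, adjusted p = 0.027). Camk2a, the synaptic kinase gene, differed by 0.27 ± 0.06, adjusted p = 0.029, with granule means ± SD of 991 ± 145 CPM (WT), 1171 ± 80.7 CPM (PS19), 1061 ± 72.1 CPM (CLEAR) and 1064 ± 149.6 CPM (CLEAR_PS19). Of the 11 granule genes outside the rule, Dock10 had a more negative effect in granule nuclei (difference -0.42 ± 0.08, adjusted p = 0.024), with estimates of -0.17 ± 0.08 in granule and 0.25 ± 0.09 in other excitatory nuclei. A comparison with the 6162 CA1-like nuclei in place of all other excitatory nuclei gave 42 calls, and leaving out 1 library gave 44 to 142 (55 without WT 1, 52 without WT 2, 53 without PS19 1, 45 without PS19 2, 142 without PS19 3, 44 without CLEAR 1, 46 without CLEAR 2, 57 without CLEAR 3, 58 without CLEAR_PS19 1 and 55 without CLEAR_PS19 2).

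The CLEAR mutation was followed in its target gene. Atp6v1h (chr1:5070018-5162529; it overlaps Rgs20) was at 93.8, 102 and 85.0 CPM (WT), 107, 99.8 and 90.2 CPM (PS19), 37.2, 40.4, 42.2 and 39.1 CPM (CLEAR) and 41.0, 44.2, 45.0 and 43.3 CPM (CLEAR_PS19). All 8 libraries with the mutation lay below all 6 without it, with a log2 fold change of -1.22 ± 0.06, adjusted p = 1.5e-08. It was -1.24 ± 0.08 without and -1.20 ± 0.08 with the transgene (interaction 0.04 ± 0.11). In other excitatory nuclei the group means were 114, 111, 64.4 and 66.4 CPM, a log2 fold change of -0.79 ± 0.06. The fall was larger in granule nuclei (difference -0.43 ± 0.05, adjusted p = 0.0012), and this was the only gene of 17642 whose CLEAR effect differed between the classes (0.00567%; 167 without the filter on low counts). With the transgene alone Atp6v1h did not pass the test (0.08 ± 0.08, adjusted p = 0.90).

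The other V-ATPase subunits were not called with the CLEAR mutation. Of 21 V-ATPase genes tested, Atp6v1h fell and none rose, and the median was 0.10. Positive estimates were found for 15 of the 21, against 50.1% of all genes. An unadjusted p under 0.05 (edgeR quasi-likelihood test) was found for 8 of the 21, against 12.7% of all genes. Over all genes the number under 0.05 was 2142, and 787 with the library set in place of sex. Atp6v0c, which encodes the proton-carrying ring subunit, had the largest positive estimate, at 71.8, 87.3 and 69.8 CPM (WT), 59.2, 70.0 and 51.4 CPM (PS19), 105, 119, 84.7 and 80.4 CPM (CLEAR) and 162, 175, 97.9 and 45.9 CPM (CLEAR_PS19) (0.59 ± 0.18, adjusted p = 0.34). Its 4 highest libraries were those of set 3, CLEAR 1 and 2 and CLEAR_PS19 1 and 2, whereas CLEAR_PS19 4 was lower than every other library. Atp6ap1, an accessory subunit, had 0.38 ± 0.13, adjusted p = 0.34 and Atp6v0e2 0.36 ± 0.12, adjusted p = 0.34. The list summed to 1131 to 1273 CPM (WT), 1158 to 1208 CPM (PS19), 1189 to 1278 CPM (CLEAR) and 1134 to 1409 CPM (CLEAR_PS19), so the groups overlapped.

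The CLEAR element contains the palindrome CACGTG, which was searched on both strands in the 250 bases upstream of each start. It occurred in 6.02% of 32851 promoters, in 2 of 21 promoters (9.52%) of the V-ATPase list, those of Atp6v0b and Atp6v1a, and in 14 of 39 promoters (35.9%) of the lysosomal list. The promoters searched were of 16 V-ATPase and 36 lysosomal genes, and Atp6v1h was not among them. The promoter of Atp6v0b, a subunit of the membrane sector (chr4:117887340-117887579, minus strand, RefSeq GRCm38.p6), is shown because it held 2 matches, in capitals, which begin 36 and 18 bases before the start:
Atp6v0b: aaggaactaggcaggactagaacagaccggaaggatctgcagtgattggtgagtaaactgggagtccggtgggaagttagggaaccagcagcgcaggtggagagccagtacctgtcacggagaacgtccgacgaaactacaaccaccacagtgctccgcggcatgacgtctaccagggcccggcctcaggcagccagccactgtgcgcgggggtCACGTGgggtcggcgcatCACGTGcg
Atp6v0b itself was at 198, 239.7 and 321 CPM (WT), 216, 205 and 284 CPM (PS19), 258, 263, 255 and 279 CPM (CLEAR) and 281, 268, 232 and 305 CPM (CLEAR_PS19) (0.18 ± 0.07, adjusted p = 0.37), with overlapping groups.

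**Figure D4:**
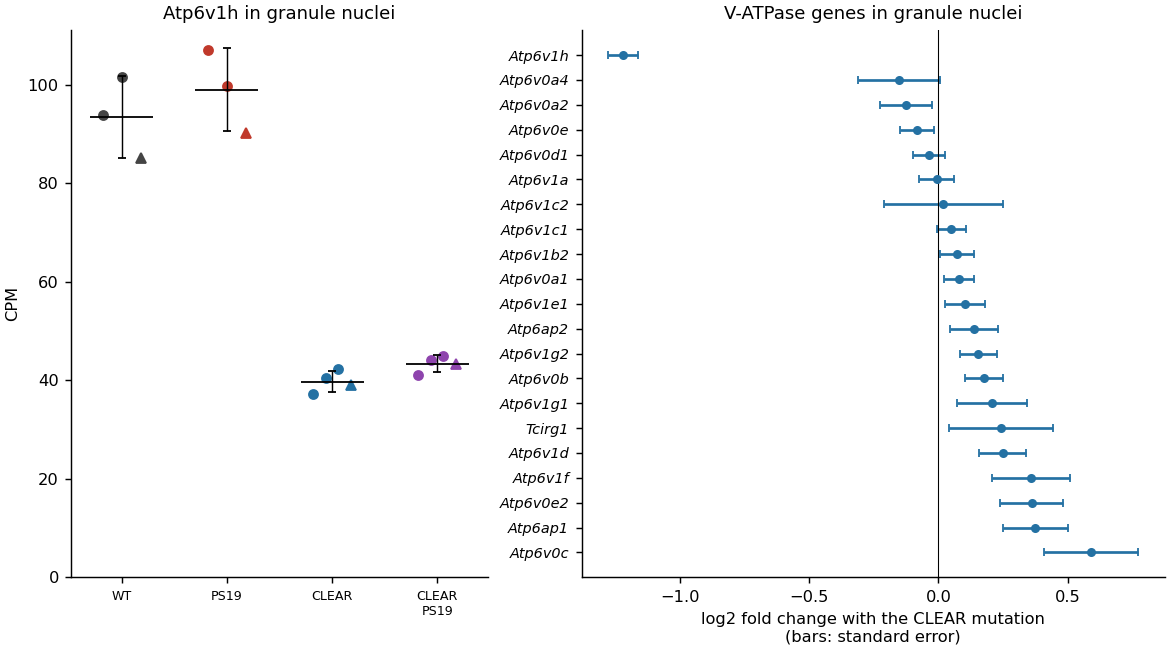
Left, Atp6v1h in the granule nuclei of each library (y axis, CPM) by genotype; right, log2 fold change with the CLEAR mutation (x axis, ± SE) of the 21 V-ATPase genes. The 8 libraries with the mutation lie at 37.2 to 45.0 CPM and the 6 without it at 85.0 to 107 CPM; Atp6v1h is the only called gene.

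Beyond Atp6v1h few genes were called with the mutation. Averaged over the transgene, 2 of 16884 genes passed (0.0118%), Atp6v1h and the gene model Gm11867, named after its values were seen, at 2.20, 4.10 and 2.72 CPM (WT), 2.64, 2.67 and 2.74 CPM (PS19), 9.67, 9.47, 5.73 and 5.15 CPM (CLEAR) and 8.15, 6.90, 5.82 and 6.88 CPM (CLEAR_PS19) (1.32 ± 0.19, adjusted p = 0.036). Gm11867 overlaps Cnbd1, and its call was lost in 9 of the 14 fits that each left out 1 library (estimates of 1.19 to 1.46, adjusted p up to 0.29; without WT 1 or 3, any PS19 library, or replicate 1 or 2 of CLEAR or CLEAR_PS19). It was also lost in 7 of 12 other settings: with the library set in place of sex (adjusted p = 0.41), without set 3, in males only, without Scrublet doublets, without the nuclei of most UMIs and under either other membership rule. At an unadjusted p under 0.05 (edgeR quasi-likelihood test) there were 2142 of 16884 genes, 787 with the library set in place of sex and 521 of 17124 without set 3. Set 3 held only libraries with the mutation, and leaving it out also left fewer libraries. DESeq2 called 11. CLEAR against WT gave 1 call, Atp6v1h. CLEAR_PS19 against PS19 gave 3 (0.0178%), Atp6v1h, C230038L03Rik (1.32 ± 0.18, adjusted p = 0.021) and Klhl35, at 2.24, 2.00 and 1.82 CPM (WT), 4.39, 4.52 and 4.80 CPM (PS19), 2.12, 1.88, 2.17 and 1.76 CPM (CLEAR) and 1.35, 0.893, 1.35 and 2.14 CPM (CLEAR_PS19) (-1.72 ± 0.25, adjusted p = 0.024). Leaving out 1 library moved this count to 1 without PS19 1, 1 without PS19 2, 9 without PS19 3, 1 without CLEAR_PS19 1, 1 without CLEAR_PS19 2, 89 without CLEAR_PS19 3 and 26 without CLEAR_PS19 4. In these fits C230038L03Rik was not called in 5 of 14 (adjusted p up to 0.13) and Klhl35 in 6 of 14 (up to 0.21). Each was also lost in 5 of 12 other settings. Both were lost without set 3, without the nuclei of most UMIs and under the stricter rule. C230038L03Rik was also lost without the sex term and in males only. Klhl35 was also lost with the library set in place of sex and under the looser rule. Of 23 lists of neuronal, lysosomal, stress and identity genes, 22 held no called gene with the mutation.

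Bulk hippocampus gave measurements of the granule neuron genes in libraries that the rule did not use. At 9 months 9 of the 17 granule neuron genes were lower in PS19 than in WT and none was higher. Over all 16133 genes tested 5.09% were lower and 7.68% higher. Of 148 receptor, channel and synapse genes 51 were also lower and none was higher, so a fall was not particular to granule neuron genes. At 4 months none of the 17 was called, where 0.0186% of genes were called. In whole tissue fewer cells of a type, more cells of other types and less RNA per cell cannot be told apart. Prox1 was at 108, 127, 129.6, 114 and 126 CPM in WT and 74.9, 96.9, 88.1 and 81.0 in PS19 at 9 months, with every PS19 library below every WT library (-0.51 ± 0.09, adjusted p = 0.00030). At 4 months its lowest, median and highest values were 102, 104 and 133 CPM in WT and 92.3, 100.2 and 116 in PS19, and the ranges overlapped. Tiam1, which encodes a Rac activator of dendritic spines, was at 117, 125, 149.7, 132 and 139 CPM in WT and 99.2, 86.9, 94.1 and 89.4 in PS19 at 9 months, again without overlap (-0.52 ± 0.06, adjusted p = 2.6e-06). C1ql2 was at 29.2, 41.2, 80.9, 40.6 and 67.7 CPM in WT and 23.1, 23.4, 20.1 and 38.4 in PS19 at 9 months; the highest PS19 library lay within the range of WT (-0.99 ± 0.29, adjusted p = 0.029). Dsp, the desmoplakin gene, was lower (-0.83 ± 0.21, adjusted p = 0.0096), as was Trpc6, a calcium-permeable channel gene (-0.62 ± 0.20, adjusted p = 0.040), with 1 WT library at 35.2 CPM and the others at 15.5 to 18.7. The other genes that fell were C1ql3 (-0.40), Dock10 (-0.38), Stxbp6 (-0.40) and Sema5a (-0.43). Calb1 did not pass (-0.18 ± 0.16, adjusted p = 0.53). Within granule nuclei none of the 11 genes outside the rule was called with the transgene. Nuclei with too few UMIs of the rule genes were not members, so that test does not cover them. The number of genes lower at 9 months was 3 without WT 5, 5 without PS19 1, 5 without PS19 3, 3 without PS19 4 and 3 without PS19 5.

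**Figure D5:**
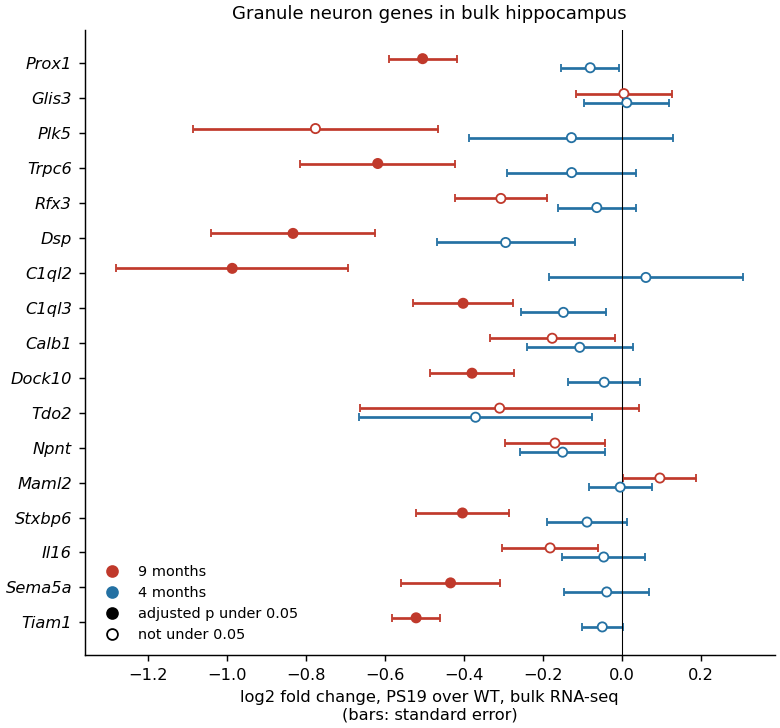
Log2 fold change of PS19 against WT in bulk hippocampus (x axis, ± SE) for 17 granule neuron genes (y axis) at 4 and 9 months; filled points passed an adjusted p of 0.05. At 9 months 9 genes are filled, all below 0, and at 4 months none is.

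Genes changed in granule nuclei were set beside the bulk result. Of the 149 genes called with the transgene, 132 were tested in bulk and 46 were called there at 9 months, 30.9% of the granule calls and 2.23% of the 2060 bulk calls (12.8% of genes tested). Of these 46, 43 had the same direction. Among genes higher in granule nuclei 38 of 83 were higher in bulk, where 7.68% of all genes were, and among genes lower in granule nuclei 5 of 49 were lower, where 5.09% of all genes were. Cacna1g stood in opposite directions, with 0.74 ± 0.12 in granule nuclei and -0.48 ± 0.15 in bulk (adjusted p = 0.032). For Fgfr1 the bulk estimate was 0.13 (adjusted p = 0.34), and for Tspan15, which fell in granule nuclei, it was 0.39 (adjusted p = 0.0054). Of the receptor, channel and synapse genes 51 of 148 were lower in bulk and none was higher, with a median of -0.21 against -0.0081 over all genes, and with 1 lower and 1 higher in granule nuclei. Of the activity genes 8 of 37 were lower in bulk, against 5.09% of all genes, with a median of -0.72; none was called in granule nuclei. The bulk and nuclei libraries differ in number and in assay, and the difference between them was not tested.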

How the data were processed

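For nuclei the authors deposited UMI counts that are raw, 1 matrix per library (Cell Ranger 5.0.1, as stated per the file headers), and for bulk tissue read counts per gene, also raw; 1 bulk table names featureCounts 2.0.0 (paired, unstranded, exons, mm10), per the file headers. Seurat, STAR, cutadapt and DESeq2 are named without versions, per the submitters' processing notes. The build and intron setting of the nuclei are not given in the sources used here. The granule rule and all gene lists were chosen with earlier results of these data known.

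UMI counts of member nuclei were summed per library and tested with edgeR 4.0.16 (R 4.3.3; limma 3.58.1; TMM, filterByExpr, quasi-likelihood test, all 14 libraries, 4 groups and sex; Benjamini-Hochberg adjusted p under 0.05 over all genes tested, two-sided). Error terms after ± are SE for log2 fold changes. CPM divide counts by the normalized total of the library. Class differences used 28 sums with the library as a block, and the 21 bulk libraries 1 fit with 4 groups. Shares were tested by exact permutation (scipy 1.17.1, Python 3.11.15), and doublets were scored with scanpy 1.11.5. Alternatives included DESeq2 1.42.0. Tested on simulated counts, the tau fit recovered 79.2% of genes changed by a log2 fold of 1 and 25.3% at 0.5 (16884 genes). Genes of the 12 largest folds per direction were named among called genes of at least 5 CPM whose libraries did not overlap, with up to 5 by smallest p in other contrasts, the genes of the design first, and the leading genes of each list. Coordinates are those of GRCm38 (GENCODE M21; 32158 of 32285 genes matched). A few genes counted in these lists are not reported here by name.

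Same-numbered libraries deviated together for the transgene comparisons (correlations of 0.33 to 0.58 for WT with PS19 and of 0.38 to 0.65 for CLEAR with CLEAR_PS19), so the replicate block pairs them there.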

Additional observations from a re-analysis of the deposited data

Results flagged for a closer look

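In 13 of 142 groups of 4 to 10 libraries the highest or lowest library stood apart from the rest of its group by Dixon's test; chance alone gives about 1 in 20. In granule nuclei these were Sestd1 in CLEAR, with its highest library at 67.2 CPM, and Tmem255a in CLEAR, with its lowest at 10.2 CPM. In CLEAR_PS19 the highest library stood apart for Hectd2os (198 CPM) and Rskr (30.3 CPM) and the lowest for Cacna1g (11.8 CPM) and Prr16 (173 CPM). In bulk hippocampus they were Trpc6 in WT at 9 months (highest 35.2 CPM), Prox1 in WT at 4 months (highest 133 CPM) and, in PS19 at 4 months, Dsp (lowest 32.9 CPM), Calb1 (lowest 85.1 CPM), Tdo2 (highest 5.61 CPM), Npnt (highest 31.5 CPM) and Stxbp6 (highest 134 CPM).

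The tau effect of granule nuclei differed from that of other excitatory nuclei by the test of the difference for Adamts6 (1.16 on the log2 scale), Mir670hg (0.95), Cacna1g (0.94), Hpca (0.86), Hectd2 (0.84), Hectd2os (0.83), Fgfr1 (0.70) and Hunk (0.58). It was more negative in granule nuclei for Plcg2 (-0.79), Lamp5 (-0.76), Zfhx3 (-0.70), Tmem255a (-0.68, lost in 5 of 14 fits without 1 library), Adcy10 (-0.65), Sesn3 (-0.49) and Sel1l3 (-0.36). The calls of Plcg2 and Zfhx3 were lost against CA1-like nuclei. The CLEAR effect on Atp6v1h was more negative in granule nuclei by -0.43. The tau effect on C230038L03Rik differed between the backgrounds with and without the mutation by 1.72, a call that was lost in 12 of 14 fits that each left out 1 library.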

How the results depend on the processing

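The tau comparison averaged over backgrounds (149 calls) gave 358 calls with DESeq2, 356 without the filter on low counts, 50 without the sex term, 502 with the replicate block, 497 with the library set in place of sex, 94 in males only, 44 under a stricter membership rule, 75 without members that held microglial UMIs and 61 to 156 leaving out 1 library. PS19 against WT (50) gave 221, 245, 8, 254 and 271 with the first 5 of these settings in the same order, 90 without set 3, 14 under the stricter and 84 under a looser rule, 26 without members with microglial UMIs and 10 to 112 leaving out 1 library. CLEAR_PS19 against CLEAR (7) gave 51, 50, 4, 29 and 25 with those 5 settings, 2 without set 3, 24 in males only and 5 to 29 leaving out 1 library. The replicate block left all 149 tau calls in place.

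Same-numbered libraries did not deviate together across the mutation (correlations of -0.26 to 0.25 for WT with CLEAR and of -0.27 to 0.22 for PS19 with CLEAR_PS19) or in bulk (0.016 to 0.081 at 9 and -0.33 to 0.40 at 4 months), so these libraries share only a number; replicates 1 and 2 are of set 3 in the mutant groups and of set 1 in the others. With the replicate block, the averaged CLEAR comparison (2 calls) gave 4332, CLEAR against WT (1) 2660, CLEAR_PS19 against PS19 (3) 2726 and the interaction (1) 2. The averaged CLEAR comparison gave 11 with DESeq2, 27 without the filter, 6 in males only, 1 with the library set in place of sex, without set 3, without Scrublet doublets, without the nuclei of most UMIs or under the looser rule, and 1 to 10 leaving out 1 library. CLEAR against WT gave 2 with DESeq2 and without the filter, and 1 to 2 leaving out 1 library. CLEAR_PS19 against PS19 gave 36 with DESeq2, 47 without the filter, 20 in males only, 8 under the stricter rule, 1 without set 3 or without the nuclei of most UMIs, and 1 to 89 leaving out 1 library. The interaction gave 2 with DESeq2, 3 without the filter, 5 in males only, 0 without the sex term, set 3, doublets or nuclei of most UMIs and under either rule, and 0 to 7 leaving out 1 library.

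The class difference of tau effects (93) gave 42 against CA1-like nuclei, 721 without the filter and 44 to 142 leaving out 1 library; that of CLEAR effects (1) gave 167 without the filter and 1 to 4. Granule genes called in bulk (9 at 9 months, 0 at 4 months) ranged from 3 to 10 and from 0 to 0. The tau difference in share was -5.16 points after thinning (adjusted p = 0.0543, exact permutation test) and -9.79 to -7.40 leaving out 1 library. The CLEAR difference in share, -0.75 points, was 0.151 after thinning, 0.069 without WT replicate 1 and 0.222 without PS19 replicate 3, within a range of -2.18 to 0.22. For 35 named gene results that were called, 752 of 892 alternatives kept the direction and the call, 140 kept the direction without the call and none reversed. Mapt was not called in any of 27 alternatives. Against CA1-like nuclei the class differences of Zfhx3 and Plcg2 lost their call. The cause of these differences was not tested.

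At this depth and number of libraries the fit recovered 25.3% of genes with a simulated log2 fold change of 0.5. Levels under 5 CPM rest on few UMIs. PS19 2 had the fewest members, and sets of libraries, sex and genotype are unevenly crossed.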
